A study of Mus musculus with 8 samples.

Results

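A set of 10 genes of leukotriene and prostaglandin signalling was examined in NK cells of the mouse spleen that had been split by ChAT-eGFP signal. They are 7 receptor genes (Cysltr1, Cysltr2, Ltb4r1, Ptger2, Ptger4, Ptgdr and Ptgdr2) and 3 genes of leukotriene synthesis (Alox5, Alox5ap and Ltc4s). Each non-control probe whose RefSeq accession maps to 1 of these symbols was taken, which gave 11 probes of the 55681 on the array, 2 of them for Cysltr1, and 10 of the 20284 genes named there. The list was drawn up with the group differences on these same arrays in view, so the members' differences between the groups are given as a description, without p-values.

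Messenger RNA was profiled on 8 one-colour Agilent arrays. The ChAT_positive group holds 4 pools of NK cells with ChAT-eGFP signal, and the ChAT_negative group holds 4 pools without it, each pool made from 2 to 4 mice. ChAT-eGFP reports choline acetyltransferase, which synthesises acetylcholine, and in both groups magnetic sorting of spleen NK cells came before the split on eGFP. Strain, age and any treatment of the mice are not given in the sources used here, nor is it said that the pools came from separate mice. The limma p-values below therefore measure the spread between these pools, part of which may be technical. Each group was hybridised on a separate slide, and the effects of slide and of eGFP status cannot be told apart.

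Leukotrienes and prostaglandins are lipid mediators made from arachidonic acid. 5-lipoxygenase (Alox5), helped by its membrane partner FLAP (Alox5ap), starts leukotriene synthesis, and Ltc4s then makes the cysteinyl leukotriene LTC4, while cyclooxygenases start prostaglandin synthesis. The products act on G protein-coupled receptors: cysteinyl leukotrienes on Cysltr1 and Cysltr2, leukotriene B4 on Ltb4r1, prostaglandin E2 on EP2 (Ptger2) and EP4 (Ptger4), and prostaglandin D2 on DP1 (Ptgdr) and CRTH2 (Ptgdr2). In lymphoid cells, prostaglandin E2 acting through EP2 and EP4 raises cyclic AMP and restrains NK cell function, and Cysltr1 and CRTH2 are known from type 2 lymphocytes and from basophils and eosinophils.

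The promoters of 8 of the 10 genes were matched in a RefSeq table of the GRCm38.p6 assembly. Cysltr1 and Alox5ap are named only. The windows of Ptger4, Ptger2 and Alox5 are printed because the means of the E2 receptor genes Ptger4 and Ptger2 lay on opposite sides of 0 in the comparison and because Alox5 had the largest difference of the tested members. Each is the 250 bases before the annotated start, 5′ to 3′, with the GC box letters GGGCGG on either strand in capitals, overlapping matches merged. They lie at chr15:5244188-5244437 (minus strand), chr14:44987861-44988110 (plus strand) and chr6:116461179-116461428 (minus strand).
Ptger4: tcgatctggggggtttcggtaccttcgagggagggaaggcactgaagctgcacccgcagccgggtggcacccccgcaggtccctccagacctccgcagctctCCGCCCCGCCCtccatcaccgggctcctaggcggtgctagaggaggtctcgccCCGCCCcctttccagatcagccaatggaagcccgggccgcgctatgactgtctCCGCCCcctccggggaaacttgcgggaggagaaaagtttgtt
Ptger2: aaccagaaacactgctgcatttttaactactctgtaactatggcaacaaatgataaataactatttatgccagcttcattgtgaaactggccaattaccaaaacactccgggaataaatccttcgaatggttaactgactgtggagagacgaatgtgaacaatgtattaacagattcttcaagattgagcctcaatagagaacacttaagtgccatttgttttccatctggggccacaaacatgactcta
Alox5: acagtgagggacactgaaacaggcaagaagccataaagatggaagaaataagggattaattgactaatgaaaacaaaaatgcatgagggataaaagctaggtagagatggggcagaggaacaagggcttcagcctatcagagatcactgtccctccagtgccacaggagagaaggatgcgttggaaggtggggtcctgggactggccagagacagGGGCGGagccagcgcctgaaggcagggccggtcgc

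The Ptger4 window held 4 GC box matches and 66.8% G or C, the Ptger2 window held 0 matches and 38.0% G or C, and the Alox5 window held 1 match and 52.8% G or C. Of 32851 promoter windows of the same length, 32.74% held at least 1 GC box match and 4.09% held 4 or more, and the median was 52.4% G or C. The GATA letters AGATAA (in 9.99% of all windows), the RUNX letters TGTGGT (14.05%), the cyclic AMP response element TGACGTCA (1.55%) and the nuclear receptor half-site AGGTCA (14.02%) were searched on both strands as well. None of these 4 was found in the windows of Ptger4, Ptger2 or Alox5, and among the 8 windows there were matches in Ltb4r1 (2 of the RUNX letters) and Ltc4s (1 of them). Matches and their absence describe the letters of these windows and nothing more.

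The cysteinyl leukotriene receptor gene Cysltr1 stood 5.99-fold higher in ChAT_positive pools, and the 5-lipoxygenase gene Alox5 stood 11.3-fold lower. Values below are levels, the log2 processed signal minus the 75th percentile of the array's non-control probes, and differences are ChAT_positive minus ChAT_negative on this log2 scale. Of the 7 receptor genes, 6 were well above background, and of those 4 had a higher mean in ChAT_positive pools and 2 a lower one. All 3 synthesis genes had a lower mean. In the fit over all 13607 genes tested with limma, 1 of 9 tested members (Cysltr1) was past the threshold as higher, where 2.81% of all genes were, and 1 (Alox5) as lower, where 3.15% of all genes were (Benjamini-Hochberg adjusted p under 0.05). The groups did not overlap for 3 members that were higher, against 9.37% of all genes, and for 1 that was lower, against 6.14%. Because the list was chosen on this comparison, nothing is read from these counts. The median difference of the 9 members was -0.07, and that of all genes tested was 0.03.

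**Figure D1:**
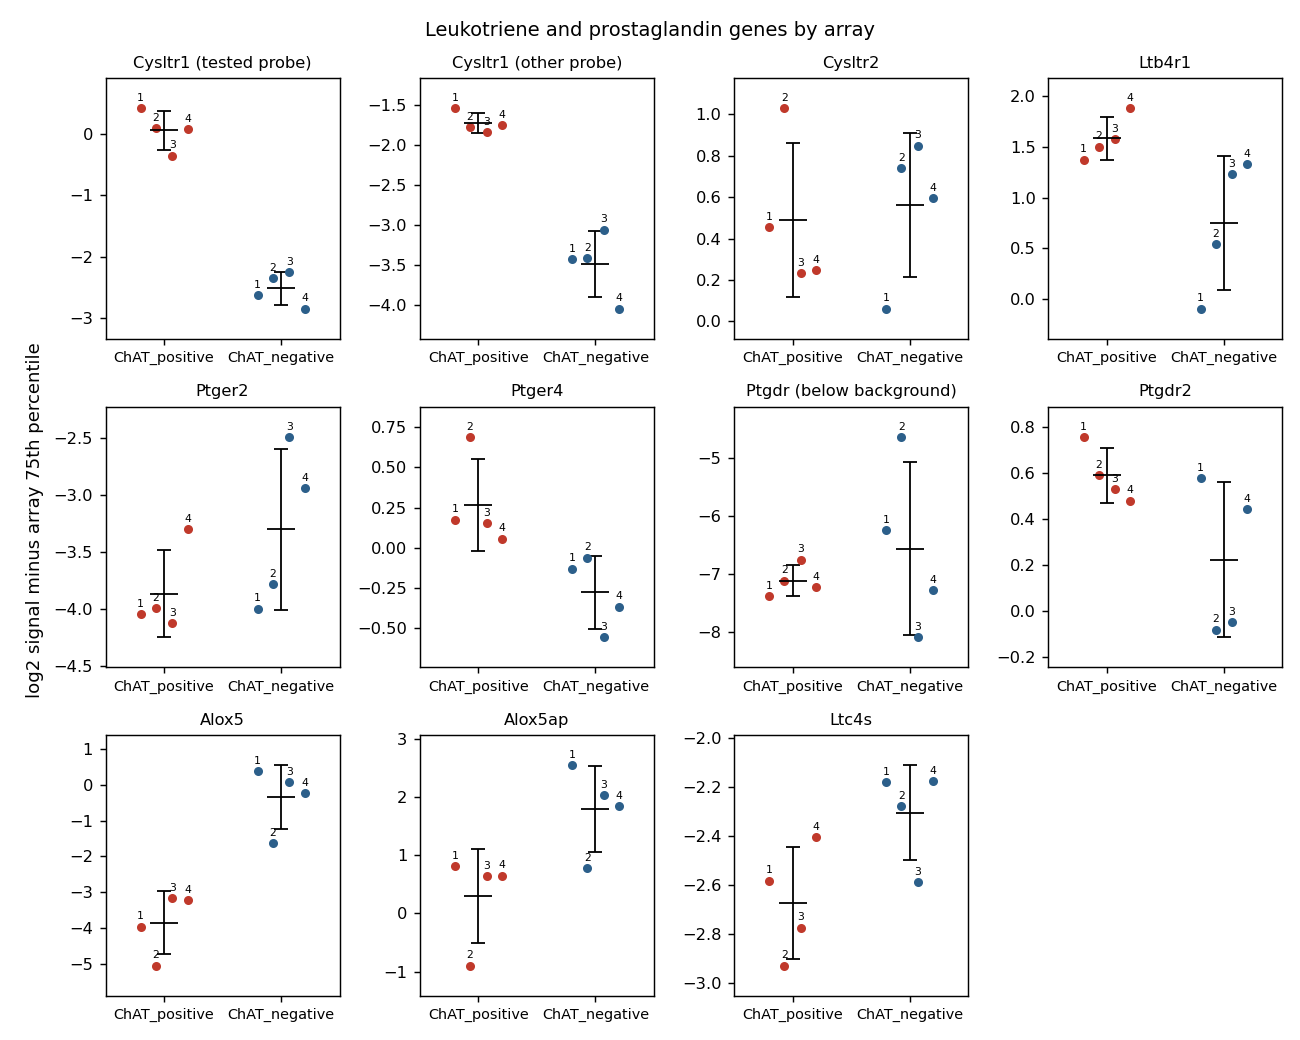
Level of each member probe on each array (vertical axis, log2 processed signal minus the array's 75th percentile, with a scale of its own in each panel). Points are arrays with their number, ChAT_positive in red and ChAT_negative in blue, and bars are the mean ± SD of 4 arrays. Both Cysltr1 probes, Ltb4r1 and Ptger4 lay higher on all ChAT_positive arrays and Alox5 lower, and the Ptgdr probe was not well above background on any array.

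Cysltr1, the high-affinity receptor for LTD4, had the largest positive difference. The probe that stands for the gene in the fit read 0.42, 0.10, -0.35 and 0.08 in ChAT_positive pools 1 to 4, against -2.63, -2.35, -2.25 and -2.85 in ChAT_negative pools 1 to 4. Every ChAT_positive array lay above every ChAT_negative array by a wide margin. The means were 0.06 ± 0.32 in ChAT_positive and -2.52 ± 0.27 in ChAT_negative pools (SD, n = 4 each), a difference of 2.58 (SE 0.21) or 5.99-fold. The other Cysltr1 probe read -1.55, -1.78, -1.84 and -1.76 in ChAT_positive pools, against -3.44, -3.42, -3.06 and -4.05 in ChAT_negative pools. It showed the same separation with a smaller difference of 1.76 (SE 0.22), or 3.39-fold. Both probes were well above background on all 8 arrays, and they share the accession, so they are not independent readings of the samples. With each array left out in turn, the difference of the tested probe ranged between 2.46 and 2.72.

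Cysltr2, the second receptor for cysteinyl leukotrienes, showed no such separation. It read 0.45, 1.03, 0.23 and 0.25 in ChAT_positive pools and 0.06, 0.74, 0.85 and 0.60 in ChAT_negative pools. The groups overlapped almost fully, and the difference of -0.07 (SE 0.26) was smaller than the spread between arrays. Its sign turned to positive under median scaling (0.15) and without ChAT_positive replicate 3 (0.01), ChAT_positive replicate 4 (0.01) or ChAT_negative replicate 3 (0.03).

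Ltb4r1, which encodes the high-affinity leukotriene B4 receptor BLT1, was higher on every ChAT_positive array. It read 1.37, 1.50, 1.57 and 1.88 in ChAT_positive pools, against -0.09, 0.54, 1.23 and 1.33 in ChAT_negative pools. The ChAT_positive arrays lay close together, while the ChAT_negative arrays spread over a wider range, and the lowest ChAT_positive array stood just above the highest ChAT_negative one. The difference was 0.83 (SE 0.35) or 1.78-fold, with means of 1.58 ± 0.21 in ChAT_positive and 0.75 ± 0.66 in ChAT_negative pools (SD, n = 4 each). It was 0.55 without ChAT_negative replicate 1, the array with the lowest Ltb4r1 level.

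The E2 receptor genes had group differences of opposite sign, and for Ptger4 alone of the pair the groups were apart. Ptger4, which encodes EP4, read 0.17, 0.69, 0.15 and 0.06 in ChAT_positive pools, against -0.13, -0.06, -0.56 and -0.37 in ChAT_negative pools. All ChAT_positive arrays were above 0 on this scale and all ChAT_negative arrays below it, with a difference of 0.55 (SE 0.18) or 1.46-fold. Ptger2, which encodes EP2, read -4.05, -3.99, -4.13 and -3.30 in ChAT_positive pools, against -4.00, -3.78, -2.49 and -2.94 in ChAT_negative pools. ChAT_negative arrays 3 and 4 were higher than the other 6 arrays, and the other 2 ChAT_negative arrays lay among the ChAT_positive ones. The Ptger2 difference was -0.56 (SE 0.40) and came to -0.29 without ChAT_negative replicate 3. Deviations from the group means of Ptger2 and Ltb4r1 followed each other over the 8 arrays (Pearson r = 0.89), and those of Ptger2 and Ptger4 ran oppositely (r = -0.67). These correlations are descriptions of 8 arrays that share their scaling.

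Of the D2 receptor genes, Ptgdr2, which encodes CRTH2, read 0.76, 0.59, 0.53 and 0.48 in ChAT_positive pools, against 0.58, -0.08, -0.05 and 0.44 in ChAT_negative pools. The ChAT_positive arrays were tightly grouped, with ChAT_negative arrays 1 and 4 near or among them and arrays 2 and 3 below, and the difference was 0.37 (SE 0.18) or 1.29-fold. The probe of Ptgdr, which encodes DP1, was not well above background on any of the 8 arrays. It was therefore not tested, and no fold is given for it.

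Alox5 had the largest difference of the 9 tested members. It read -3.96, -5.05, -3.17 and -3.21 in ChAT_positive pools, against 0.38, -1.64, 0.07 and -0.23 in ChAT_negative pools. The groups were far apart, and array 2 was the lowest of its group in both. The means were -3.85 ± 0.88 in ChAT_positive and -0.35 ± 0.89 in ChAT_negative pools (SD, n = 4 each), a difference of -3.49 (SE 0.63), or an 11.3-fold lower level in the ChAT_positive ones. Its signal cleared background on every array but ChAT_positive replicate 2, and the ChAT_positive mean therefore includes 1 value that is not well above background. With each array left out in turn the difference ranged between -3.92 and -3.09.

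Alox5ap followed Alox5 with a smaller difference. It read 0.82, -0.89, 0.64 and 0.65 in ChAT_positive pools, against 2.54, 0.79, 2.04 and 1.84 in ChAT_negative pools. Array 2 was again the lowest of each group, and ChAT_negative array 2 lay just below ChAT_positive array 1, which is the 1 overlap between the groups. The difference was -1.50 (SE 0.55), and it was -1.44 without both arrays numbered 2. Deviations of Alox5 and Alox5ap from their group means had a Pearson r of 0.92 over the 8 arrays.

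Ltc4s, which conjugates LTA4 with glutathione, differed least among the synthesis genes. It read -2.58, -2.93, -2.78 and -2.41 in ChAT_positive pools, against -2.18, -2.28, -2.59 and -2.18 in ChAT_negative pools. Without ChAT_negative array 3 the groups would be apart, and that array lay below ChAT_positive arrays 1 and 4. The difference was -0.37 (SE 0.15), and -0.15 under median scaling, the smallest value under any alternative.

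**Figure D2:**
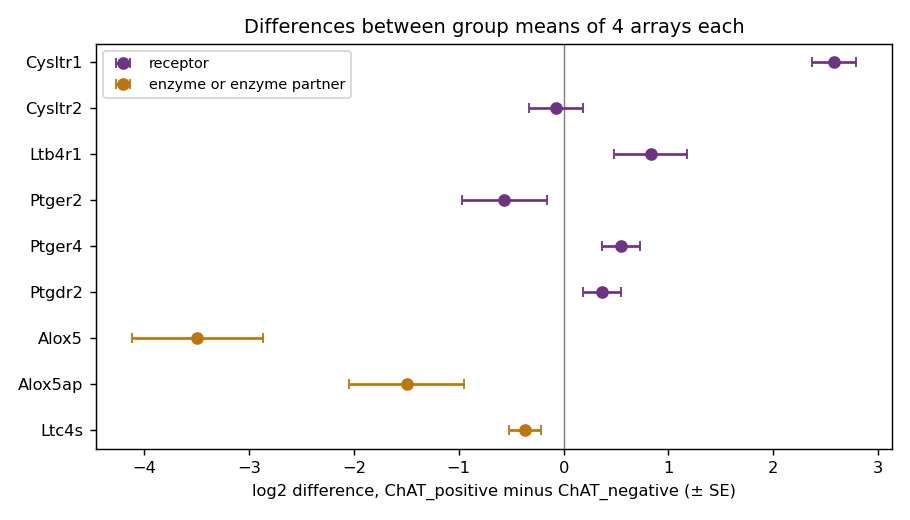
Difference of group means (horizontal axis, log2, ChAT_positive minus ChAT_negative, bars are the SE from 4 arrays a group) for the 9 members above background. Receptors range between -0.56 for Ptger2 and 2.58 for Cysltr1, and the synthesis genes between -3.49 for Alox5 and -0.37 for Ltc4s.

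Markers of several cell types moved with these genes. Summed levels are linear, in units of each array's 75th percentile. All 10 NK cell markers were well above background on all 8 arrays. Of them 3 fell and 0 rose (limma adjusted p under 0.05), among them Klrb1c, with a difference of -1.60 (limma adjusted p = 0.00104), and Klrk1, with one of -1.14 (0.0065). Ncr1, at -0.66, was not called (0.122). The list's sum ranged from 115.4 to 179.0 in ChAT_positive and from 183.2 to 221.5 in ChAT_negative pools. Chat itself was at 3.75 ± 0.25 in ChAT_positive and 2.65 ± 0.34 in ChAT_negative pools (SD, n = 4 each), well above background on all 8 arrays, and it rose (limma adjusted p = 0.0201). The pools had been split on the reporter of this gene, so its p-value is given as a description only. Fewer cells of a type and less RNA per cell cannot be told apart in pooled RNA.

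Basophil and mast cell markers lay lower beside Alox5 and Alox5ap. Of 9 tested, 5 fell and 0 rose. Cd200r3, 1 of the 5, had no ChAT_positive array well above background and was tested on the strength of the ChAT_negative arrays alone. Of the others, the difference was -4.04 for Mcpt8, -4.95 for Prss34 and -4.86 for Fcer1a. The list's sum ranged from 5.81 to 8.38 in ChAT_positive and from 19.1 to 51.6 in ChAT_negative pools, and Ms4a2, which was not tested, was likewise not well above background on any ChAT_positive array. Neutrophil markers (3 of 8 fell, among them Mpo, while S100a8 at -2.03 and S100a9 at -1.44 were not called) summed to 3.10 to 34.6 in ChAT_positive and 20.4 to 58.9 in ChAT_negative pools, with Elane (not tested) and Retnlg (1 of the 3) not well above background on any ChAT_positive array. Of 8 platelet markers 2 fell, among them Ppbp, while Pf4 at -0.71 and Itga2b at -0.55 were not called. The platelet sums were 8.53 to 12.3 in ChAT_positive and 14.1 to 28.0 in ChAT_negative pools. Of 5 eosinophil markers tested, limma called 0 (2 were lower before adjustment, p under 0.05), with Epx and Ear6 not well above background on any ChAT_positive array, and their sums were 1.51 to 2.19 in ChAT_positive and 2.67 to 5.72 in ChAT_negative pools. In all 4 of these lists the sum was lowest on array 2 of each group, as were Alox5 and Alox5ap. The sums of NK, T cell, monocyte and macrophage, and dendritic cell markers were highest on array 2 of each group. Over the 8 arrays, Alox5 deviations from group means had an r of 0.80 with those of the basophil and mast cell sum. It was 0.89 with the neutrophil sum, 0.83 with the platelet sum and 0.82 with the eosinophil sum. With the NK sum the r was -0.75, with the T cell sum -0.86 and with the monocyte and macrophage sum -0.81. It was -0.72 with the type 2 sum, -0.71 with the dendritic cell sum, -0.63 with the type 17 sum and -0.01 with the B cell sum. The part of these cell types in the Alox5 and Alox5ap differences was not tested.

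**Figure D3:**
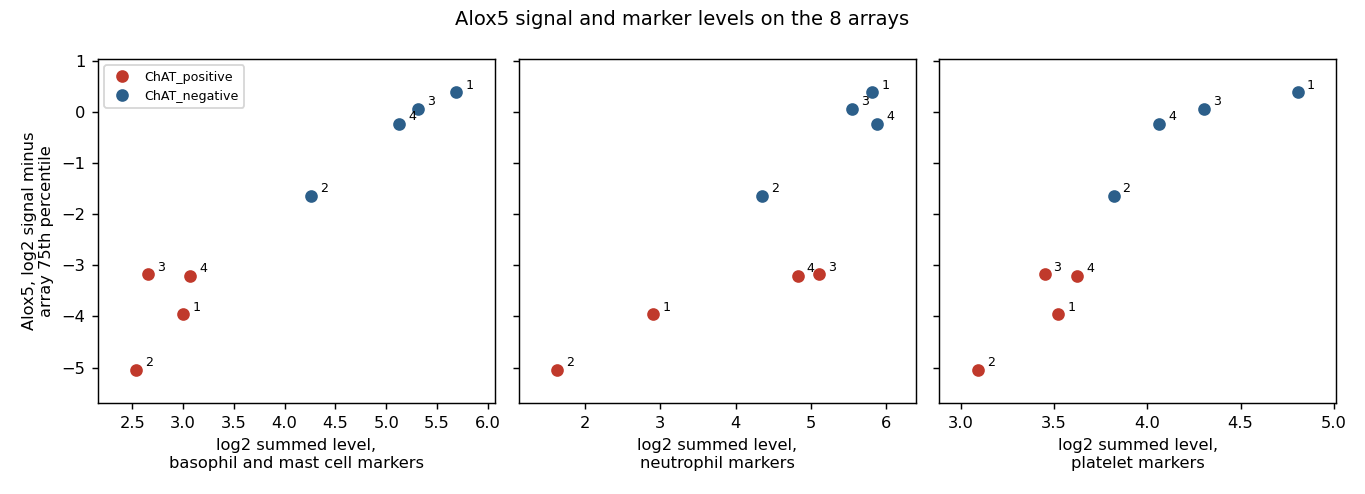
Alox5 level (vertical axis, log2 signal minus the array's 75th percentile) against the log2 summed level of basophil and mast cell, neutrophil and platelet markers (horizontal axes). Each point is 1 array with its number, ChAT_positive in red and ChAT_negative in blue. Array 2 is the lowest in Alox5 in each group, and the groups overlap in the neutrophil sum and not in the other 2 sums.

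Provisional gene names left out, the genes whose levels were most like Alox5 over the 8 arrays were Mcpt8, Cd200r3, Myl9, Gng11 and Hba-a1. Their Pearson r lay between 0.98 and 0.99. Of all 13606 genes compared, 36 had an r over 0.95 with Alox5. Mcpt8 and Cd200r3 are basophil genes, Gng11 and Myl9 are abundant in platelets, and Hba-a1 encodes haemoglobin alpha. Cd200r3 had no ChAT_positive array well above background, so its likeness rests in part on background values. For genes well above background on all 8 arrays, the r of the deviations from group means with those of Alox5 was 0.96 for Mcpt8, 0.97 for Myl9 and 0.88 for Hba-a1. Ranked in the same way, the genes most like Cysltr1 were Ccr4, a chemokine receptor, Ptk2, Trpm6, Phc3 and the chemokine gene Cxcl3, with r between 0.98 and 0.99. Of all genes compared, 38 had an r over 0.95 with Cysltr1. Deviations from group means had an r with those of Cysltr1 of 0.50 for Ptk2, 0.70 for Cxcl3 and 0.38 for Phc3, while Ccr4 and Trpm6 were well above background on 1 ChAT_negative array each. Both sets carry the difference between the groups, so their r over 8 arrays is a description only.

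Part of the type 17, type 2 and B cell marker lists lay higher beside Cysltr1. Of 8 tested type 17 markers 5 rose and 0 fell, among them Il17a by 3.18 and Il17f by 3.74, with sums of 49.6 to 70.1 in ChAT_positive and 27.6 to 34.3 in ChAT_negative pools. Of 7 tested type 2 lymphoid markers 3 rose and 0 fell, with Il17rb higher by 2.52. Before adjustment, 4 of that list were higher and 1 was lower (p under 0.05), and for 1 the groups were apart as lower. Gata3 (-0.21) and Il1rl1 (0.33) were not called, and the list's sums overlapped, at 20.7 to 29.2 in ChAT_positive and 20.6 to 24.7 in ChAT_negative pools. Il9r was the 1 marker of that list not well above background on any ChAT_positive array. Of 8 B cell markers 5 rose and 0 fell, with sums of 93.0 to 121.7 in ChAT_positive and 62.1 to 79.8 in ChAT_negative pools. Of 10 T cell markers limma called 0 (1 was lower before adjustment, p under 0.05), and their sums were 19.8 to 33.8 in ChAT_positive and 20.9 to 31.0 in ChAT_negative pools. Of 8 monocyte and macrophage markers it called 0 (1 higher and 2 lower before adjustment), with sums of 11.0 to 14.0 in ChAT_positive and 15.2 to 18.4 in ChAT_negative pools. Of 7 dendritic cell markers 2 fell, with overlapping sums, and Clec9a, 1 of the 2, was not well above background on any ChAT_positive array. Deviations of Cysltr1 from its group means had an r of 0.18 with those of the type 17 sum. It was 0.38 with the type 2 sum and -0.89 with the B cell sum. For Ptger4 the r was 0.94 with the type 17 sum, 0.96 with the dendritic cell sum and 0.84 with the NK sum. It was 0.71 with both the T cell and the monocyte and macrophage sums, 0.44 with the B cell sum and 0.49 with the type 2 sum. With the basophil and mast cell, neutrophil, eosinophil and platelet sums the Ptger4 r was negative, between -0.74 and -0.36. The part of these cell types in the receptor differences was not tested.

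None of the other eicosanoid genes was called in the same fit of all 8 arrays by group. Of 51 listed by role, 50 were on the array and 29 were tested. The genes were not picked by how they moved, but the list was drawn up with earlier results of these data known. By limma 0 were higher and 0 lower. Before adjustment, 3 were higher and 9 lower at p under 0.05, where 1759 and 1617 of all 13607 genes were. Their median difference was -0.05. The groups did not overlap for 5 of them, all lower in ChAT_positive pools, and for 0 that were higher, where 6.14% of all genes were apart as lower and 9.37% as higher.

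Among the listed lipoxygenases other than Alox5, Alox12, the platelet-type 12-lipoxygenase, was the 1 tested. It read -4.32, -7.09, -5.04 and -5.50 in ChAT_positive pools, against 0.45, -3.87, -1.99 and -2.56 in ChAT_negative pools. Array 2 was the lowest of each group here too, and the groups were apart. The difference was -3.49 (SE 0.89, limma adjusted p = 0.053), with signal well above background on 1 of 4 ChAT_positive arrays. Without ChAT_negative replicate 2, the lowest of its group, the difference was -4.12 and the limma adjusted p was 0.0383. With any other single array left out, the limma adjusted p lay between 0.0599 and 0.12. Platelet marker sums, given above, moved with Alox12, and their part was not tested.

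Ptger3, which encodes the E2 receptor EP3, had a level of -2.37 ± 0.38 in ChAT_positive and -1.25 ± 0.60 in ChAT_negative pools (SD, n = 4 each). Its difference was -1.12 (SE 0.31, limma adjusted p = 0.0655). The limma adjusted p was 0.0399 without ChAT_negative replicate 2, and between 0.0728 and 0.154 with any other single array left out. A dimmer Ptger3 probe differed by -0.85 and was well above background on 2 ChAT_positive and 3 ChAT_negative arrays. The groups overlapped on both probes. With the mean of the gene's probes, the limma adjusted p was 0.0971. The difference of the EP1 gene Ptger1 was -0.69 (adjusted p = 0.0718). Ptgfr, which encodes the prostaglandin F receptor, was not well above background on any array. Neither were the receptor genes Oxgr1 and Gpr17, and Ltb4r2, the gene of the second leukotriene B4 receptor, was well above background on 1 array, ChAT_negative replicate 1.

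In that fit the synthesis, transport and breakdown genes were not called. Lta4h, which makes leukotriene B4, was at 3.10 ± 0.07 in ChAT_positive and 3.43 ± 0.16 in ChAT_negative pools (SD, n = 4 each), a difference of -0.33 (SE 0.12, limma adjusted p = 0.13). Of the 10 cyclooxygenase and prostanoid synthase genes, all were tested and the lowest p was that of Ptgis, the prostacyclin synthase gene, with a difference of -0.52 (SE 0.15, adjusted p = 0.075). The difference of Pla2g4f, a cytosolic phospholipase A2 gene, was -0.57 (SE 0.15, adjusted p = 0.0553). That of Ptgr1, which acts in the breakdown of leukotriene B4 and prostaglandins, was -0.49 (SE 0.21, adjusted p = 0.184). The prostaglandin D synthase gene Ptgds, named after its values were seen, was called lower without ChAT_positive replicate 1, the 1 ChAT_positive array on which it was well above background, so that call sets ChAT_negative arrays against background values.

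**Figure D4:**
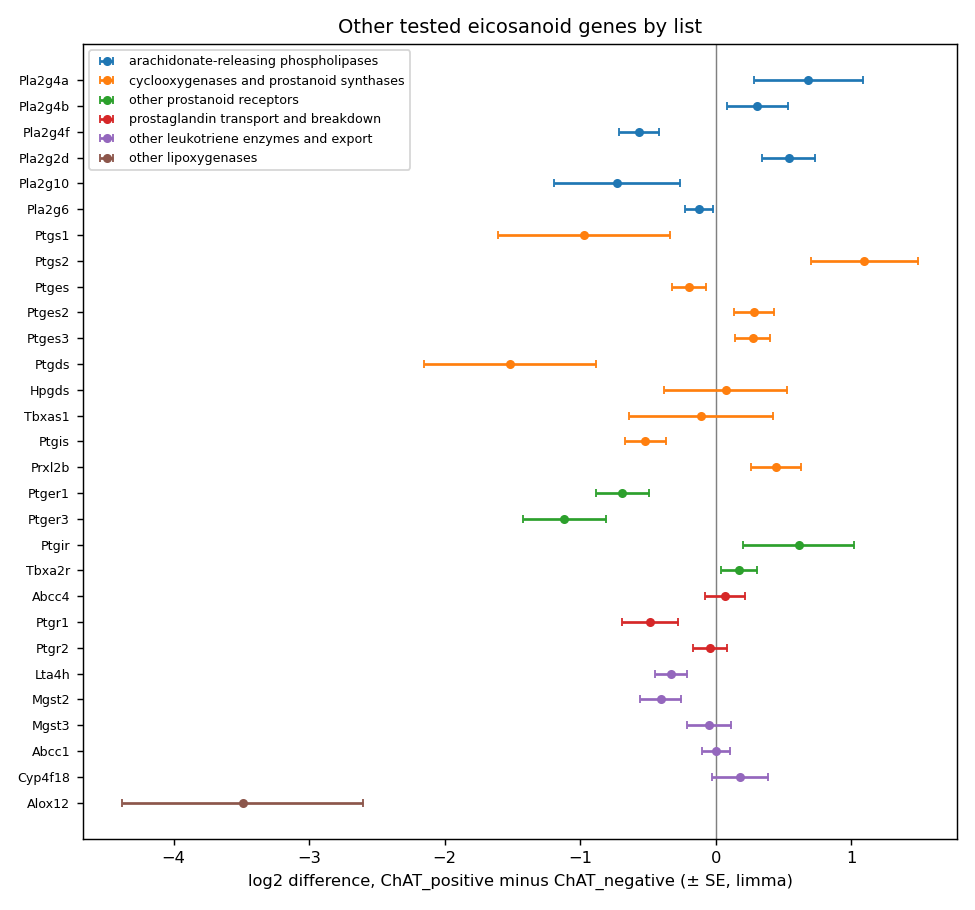
Difference between the groups (horizontal axis, log2, ChAT_positive minus ChAT_negative, bars are limma's SE) for the 29 tested eicosanoid genes outside the member list, coloured by list. The Alox12 point stands at -3.49, and those of Ptger3 and Lta4h at -1.12 and -0.33.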

How the data were processed

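Gene expression was measured in 4 ChAT_positive and 4 ChAT_negative pools, grouped by title. The labels' protocols give an input of 100 ng RNA, T7 amplification and Cy3 labelling. The deposited scanner files hold linear spot intensity, made with Agilent Feature Extraction 11.5.1.1 per the file headers, with background already subtracted and no scaling from array to array. The deposited value table holds log2 values of 31942 probes that followed log2 of the scanner values less a constant within 0.0065 of each array's 75th percentile, so genes were not centred. Its column medians ranged from -0.72 to -0.63, and how its probes were chosen is not stated.

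Spots of controls and 1344 spot values with an outlier flag were dropped (51 probe values with every spot flagged were kept), spots of a probe were averaged, and 26762 of 55681 probes were named through unversioned RefSeq accessions in a GRCm38.p6 table. The array was annotated on an earlier assembly, so no gene positions are given beyond promoter windows. Between 50.2% and 63.2% of spots were well above background and 0 were saturated, and the number of arrays limits the precision.

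Values are log2 intensity minus each array's 75th percentile. The brightest probe of each gene among those well above background on at least 4 of 8 arrays was fitted with limma 3.58.1 in R 4.3.3 (lmFit, eBayes, two-sided, Benjamini-Hochberg over 13607 genes). SEs of members come from the 2 group SDs, and SEs of other genes from limma. The procedure was tested on simulated data, of which no outcome is given here, so nothing is read from that. Members, lists, motifs and tests were chosen with earlier results of these data known. Named genes are every member, per pathway list the called genes or the 1 with the lowest p, markers among the first 3 tested of a list or not above background in a group, and the 5 genes most like the members with the largest differences. Provisional gene names were left out when those 5 were taken. A planned comparison of protein sequences was not made, and some markers are not reported here. Alternatives changed the scaling, background correction, filter, probe choice, variance model, weights, block and arrays. Normexp used the median spot signal, since no mean signal column was used here.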

Additional observations from a re-analysis of the deposited data

Results flagged for a closer look

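Of 34 groups of 4 arrays checked, 3 held an array whose gap to the nearest other exceeded Dixon's critical value, which chance gives in about 1 group in 20. For Alox5ap, ChAT_positive replicate 2 stood at a level of -0.89 with the nearest of the other 3 at 0.64. For Ptger2, ChAT_positive replicate 4 stood at -3.30 with the nearest at -3.99. For Pla2g4f, ChAT_positive replicate 4 stood at -4.00 with the nearest at -4.36. All 3 spots were well above background.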

How the results depend on the processing

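Cysltr1, Ltb4r1, Ptger2, Ptger4, Ptgdr2, Alox5, Alox5ap and Ltc4s kept the sign of their difference under every alternative run in which they were tested. Cysltr2 changed sign under median scaling (0.15), without both arrays numbered 3 (0.11) and with single arrays left out, where it ranged between -0.25 (without ChAT_positive replicate 2) and 0.0252 (without ChAT_negative replicate 3). Median scaling moved the median difference of all genes by 0.22, so differences under it should be read against that shift, and it gave 211 genes higher and 119 lower against 383 and 428, or 63.9% against 47.2% of calls higher. With no filter on dim probes 98 were higher and 125 lower, with array weights 577 were higher, without both arrays numbered 3 21 were higher and 35 lower, and without both arrays numbered 2, an alternative chosen after seeing the data, 192 were higher. Leaving out single arrays gave 94 to 306 higher and 116 to 425 lower. The counts moved by over 1.5 times without ChAT_positive replicate 1 (155 higher and 196 lower), 3 (100 and 122) or 4 (197 and 284) and without ChAT_negative replicate 2 (181 and 248), 3 (148 and 218) or 4 (94 and 116).

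Of the members called lower, there were 0 when probes had to be above background on all 8 arrays, where Alox5 was not tested, 0 without both arrays numbered 3, and 2 without both arrays numbered 2 (Alox5 and Alox5ap). Of the other eicosanoid genes, those called lower numbered 2 with the filter at all 8 arrays (Pla2g4f and Ptger3), 1 with a trended and robust variance (Ptger3), 4 with array weights (Alox12, Pla2g4f, Ptger3 and Ptgis), 2 without both arrays numbered 2 (Alox12 and Ptger3) and 0 to 2 with single arrays left out. The causes of these changes were not tested, and neither was the part of the number of genes and arrays that each alternative leaves.

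Groups share the numbers 1 to 4 in the titles, with nothing in the labels to say that a number marks shared mice or a shared day. Deviations from group means correlated at 0.54, 0.66, 0.52 and 0.03 for numbers 1, 2, 3 and 4, so ChAT_positive replicate 4 did not follow its own number (it correlated best with ChAT_negative replicate 3, at 0.23), and the numbers were not taken as pairs. With the replicate block 1002 genes were higher and 1340 lower, 3 members were higher (Cysltr1, Ltb4r1 and Ptger4) and 2 lower (Alox5 and Alox5ap), and 2 other eicosanoid genes were higher (Pla2g4a and Ptgir) and 8 lower (Alox12, Pla2g10, Pla2g4f, Ptgds, Ptger1, Ptger3, Ptgis and Ptgr1). Signal over background limits Ptgdr, Alox5 and Alox12.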
